A study of Mus musculus with 10 samples.

Results

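The genes described here encode the SR proteins, the hnRNPs and the core subunits of the early spliceosome, read from maps of a histone mark and of elongating RNA polymerase II in mouse muscle stem cells (MuSCs). Members were the autosomal protein-coding genes whose symbols start with Srsf, Hnrnp, Sf3a, Sf3b or Snrp. There were 51 of them among 20807 autosomal protein-coding genes of GENCODE M21, namely 11 Srsf, 19 Hnrnp, 9 Sf3a or Sf3b and 12 Snrp genes. At least 1 H4K20me1 peak was listed with 32 members, at least 1 Pol II S2P peak with 42, and peaks of both with 30. The same prefixes matched 1 gene on X, Hnrnph2, which stayed outside the comparisons.

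MuSCs of both groups were cultured cells from mice that carry Pax7CreERT, a Cre recombinase driven from the satellite cell gene Pax7 and switched on by tamoxifen. The control group (Ctrl) was labelled Suv4-20h1WT and the mutant group (sKO) Suv4-20h1KO. Suv4-20h1 is the older name of Kmt5b, a methyltransferase that adds further methyl groups to histone H4 monomethylated at lysine 20 (H4K20me1). CUT&RUN, in which an antibody tethers a nuclease to its target and the released fragments are sequenced, was performed for H4K20me1 and for RNA polymerase II phosphorylated at serine 2 (Pol II S2P), with 2 libraries per genotype and antibody. The study calls them biological replicates. The mice of the study were young adults of both sexes, and the labels give no age for single libraries.

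SR proteins bind exonic enhancers through RNA recognition motifs and recruit spliceosomal subunits through domains rich in arginine and serine. The hnRNPs coat nascent transcripts and often oppose SR proteins at splice sites. SF3a and SF3b are parts of the U2 snRNP, which recognises the branch site, and most Snrp genes encode the Sm ring proteins or the specific proteins of U1 and U2. Serine 2 phosphorylation marks polymerase in productive elongation and is known to be highest toward the ends of genes, where transcripts are cleaved and polyadenylated. H4K20me1 is known to lie over the bodies of transcribed genes in broad domains.

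Values are scores, that is, normalised coverage summed over all peaks listed with a gene. Total scores ran from 15218720 to 35046570 for H4K20me1, with both sKO libraries above both Ctrl libraries, and from 3257665 to 4885638 for Pol II S2P, where the genotypes overlapped. At the deleted gene Kmt5b, H4K20me1 scores were 1332 and 1740 in Ctrl against 1934 and 2196 in sKO (log2 fold change 0.44 ± 0.27, SE; adjusted p = 0.118 in limma). For Pol II S2P it had 24 and 62 in Ctrl against 48 and 22 in sKO, too low to be tested, and a peak sum cannot show the loss of single exons. Of 8 MuSC and myoblast markers, 6 had a Pol II S2P peak, with summed scores between 4220 and 6292, while Myf5 and Cdh15 had none. The corresponding sums were 82 to 147 for 3 endothelial markers, of which Cdh5 and Kdr had no peak, 874 to 1368 for 3 immune markers, of which Ptprc had none, 0 for 3 fibro-adipogenic markers, and 272 to 412 for 3 markers of differentiated muscle, of which Myh4 had none. Nearly all of the immune sum was Cd68, with 840 to 1308. Which part other cells had in the results was not tested.

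The splicing factor genes carried high levels of Pol II S2P. Per kilobase of gene, the median Ctrl score was 26.6 over the 39 members tested and 7.31 over the 8531 autosomal genes tested. Within each library the median log2 score of the members was above that of all genes, by 1.39 and 1.47 in the Ctrl libraries and by 1.62 and 1.55 in the sKO libraries. The hnRNP genes had the highest median of the 4 families, at 70.5 per kilobase, followed by Srsf genes at 58.9, Snrp genes at 14.3 and Sf3 genes at 9.99. Hnrnpdl, which encodes a paralogue of the AU-rich element binding protein hnRNP D, had the highest Ctrl score per kilobase, 377. Srsf3, which encodes a short SR protein, followed at 321 and Hnrnpa3 at 273. These densities divide by gene length a score that includes signal beyond the gene end.

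**Figure D1:**
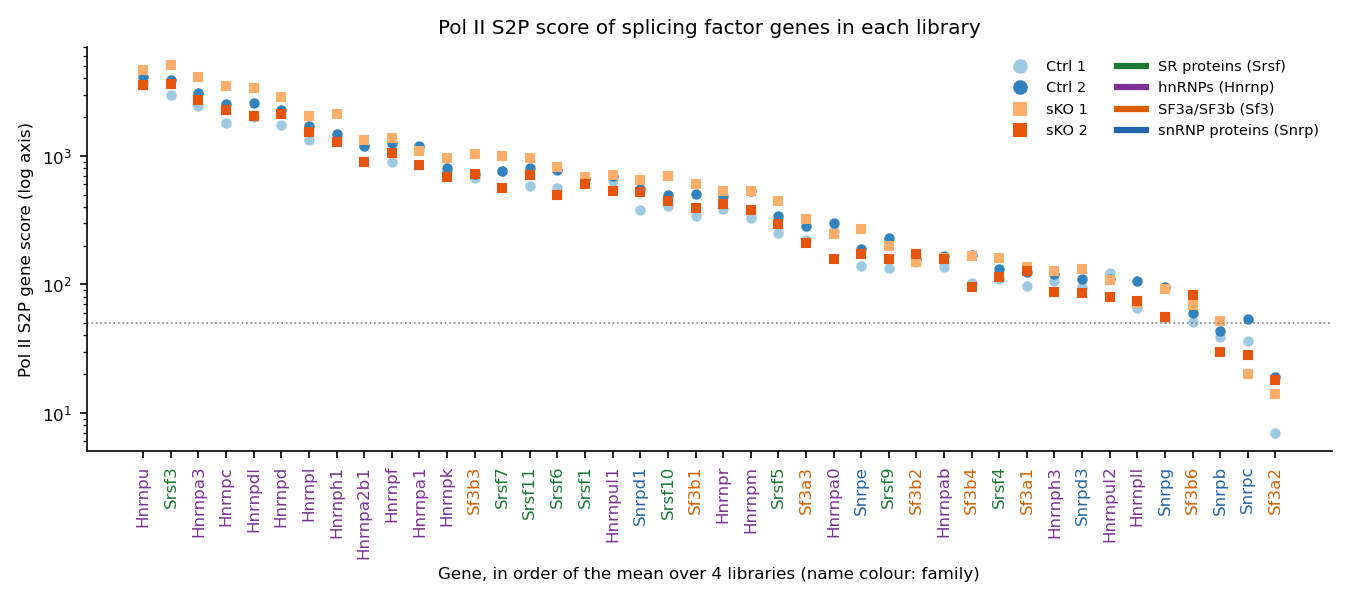
Pol II S2P score (log axis) of the 42 splicing factor genes with a listed peak, 1 point for each of the 4 libraries, genes ordered by their mean (not divided by gene length) and the names coloured by family; the dotted line marks the mean of 50 required for testing. The genotypes overlap at most genes, and sKO 1, the library with the highest total, is the highest at most of the upper genes.

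Hnrnpu, whose product is also known as scaffold attachment factor A, had a score, summed over 11 peaks and not divided by length, of 3675 and 4093 in Ctrl against 4655 and 3529 in sKO. The genotypes overlapped, and the log2 fold change was 0.06 ± 0.42 (SE). Srsf3 had 2992 and 3915 in Ctrl against 5061 and 3613 in sKO (0.32 ± 0.42). Hnrnpa3 had 2430 and 3104 in Ctrl against 4140 and 2705 in sKO. At both genes sKO 2 lay between the Ctrl libraries. Among the Sf3 genes, values are given for Sf3b3, a scaffold subunit of SF3b, with 667 and 721 in Ctrl against 1043 and 719 in sKO, Sf3b1, which encodes the subunit that clamps the branch site, with 339 and 506 against 599 and 396, and Sf3a3, with 223 and 286 against 320 and 210. Among the Snrp genes, Snrpd1 had 378 and 553 in Ctrl against 646 and 520 in sKO, Snrpe 139 and 188 against 269 and 171, and Snrpd3 96 and 110 against 131 and 86. All 3 encode Sm ring proteins, and at each of them the genotypes overlapped. A peak over the Snrpd3 start was listed with Gucd1 and did not enter its score (148 and 198 in Ctrl, 199 and 131 in sKO). Of the other Srsf genes, Srsf7 had 765 and 762 in Ctrl against 994 and 563 in sKO, and Srsf11 had 582 and 810 against 955 and 714.

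No splicing factor gene passed the test for a Pol II S2P difference between the genotypes (limma on the deposited scale, at 0.1 for the adjusted p and a log2 fold change beyond 0.5 in either direction). The same held for all 8531 genes, 0% called in either direction. On this scale limma took the spread entirely from all genes, and differences in library scale enter it. The sKO totals were 4885638 and 3435908. Even the largest log2 fold change of any gene, 2.24, was not called, so the lack of calls does not show an absence of change. With no adjustment, 0 members and 1.17% of all genes had a p below 0.05. The median log2 fold change was 0.10 over 39 members and 0.09 over all genes. Each sKO library exceeded each Ctrl library at 2 members, where the background was 9.41%, and lay below them at 3, where it was 4.52%. The remaining 34 members overlapped.

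The highest fold changes belonged to Sf3b6, whose product sits at the branch adenosine, with 51 and 60 in Ctrl against 69 and 82 in sKO (0.44 ± 0.49), to Snrpe (0.41 ± 0.41), and to Hnrnpc, which encodes a uridine tract binder, with 1801 and 2523 in Ctrl against 3488 and 2285 in sKO (0.41 ± 0.43). The lowest belonged to Hnrnpa0, with 258 and 302 in Ctrl against 245 and 158 in sKO (-0.50 ± 0.41), Hnrnpul2, with 123 and 111 against 108 and 80 (-0.33 ± 0.42), and Hnrnpa1, with 1101 and 1193 against 1088 and 849 (-0.25 ± 0.43). At all 3 of these hnRNP genes both sKO libraries lay below both Ctrl libraries. The Hnrnpul2 score left out a stronger peak over its gene start, listed with Ttc9c. That peak had 474 and 546 in Ctrl against 444 and 334 in sKO. When each library was scaled to the same total, Hnrnpa0 was called lower (-0.64, limma adjusted p = 0.0401) and no member was called higher, beside 0.855% of all genes called lower and 1.26% called higher. The difference at Hnrnpa0 lay in the peak over the gene start, with 205 and 243 in Ctrl against 190 and 102 in sKO. Its other peak, nearer the gene end, had 53 and 59 against 55 and 56.

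Long Pol II S2P peaks ran over the end of several hnRNP genes and of Srsf3. The gene-end peaks of the other Srsf genes that had one were 1263 to 3341 bases long. In 13 of the 42 members with a listed peak (31.0%) the strongest of the listed peaks held the gene end, against 4.40% of 9632 protein-coding genes. The strongest listed peak held the gene start in 17 members (40.5%), beside 33.8% of all genes. All 5 member peaks longer than 5000 bases held a gene end, as did 67 of the 87 such peaks of all protein-coding genes. The Srsf3 peak was 10267 bases long, of which 8635 lay beyond the gene end. The Hnrnpdl peak was 6766 bases long with 4646 beyond the end, the Hnrnpd peak 6645 with 4414, and the Hnrnpa3 peak 5079 with 4908. The longest listed with a member, at Hnrnpu, covered 10667 bases and reached 3092 bases past the end, where it overlapped the protein-coding gene Cox20 on the opposite strand and the antisense transcript B230369F24Rik. CUT&RUN does not record strand, so the signal of these cannot be told apart from that of Hnrnpu there.

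A further 4 members had a peak over their gene end that was listed with a neighbouring gene and did not enter their scores. As strand is not recorded, any signal of the neighbour in these peaks cannot be told apart from that of the member. The peak over the end of Hnrnpa2b1 was the longest over any member, 12322 bases with 9396 beyond the end, and was listed with Nfe2l3. Its score was 3731 and 4724 in Ctrl against 7073 and 4408 in sKO, more in every library than the 1206, 1195, 1324 and 891 listed with Hnrnpa2b1 itself. Hnrnpk, which encodes a binder of cytosine-rich RNA, had a peak of 6903 bases, of which 6411 lay beyond its end, listed with 2210016F16Rik (1603 and 2003 in Ctrl, 2817 and 1875 in sKO). Hnrnpab had one of 5885 bases listed with Phykpl (1056 and 1307 against 1751 and 1168), and Hnrnpa1 one of 4604 bases listed with Nfe2 (1217 and 1375 against 1478 and 1035). At Hnrnpa1 the genotypes overlapped, as at the other 3. Hnrnpa1, Hnrnpa2b1 and Hnrnpab were among the 17 members counted above by a start peak. At each of them the gene-end peak listed with the neighbour had higher scores in every library than that start peak. Counting peaks whichever gene they were listed with, the gene end lay under a Pol II S2P peak in 18 of 51 members (35.3%) and in 5.82% of all 20807 genes. It lay under a peak of over 5000 bases in 8 members (15.7%) and in 0.476% of all genes, 99 in number.

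**Figure D2:**
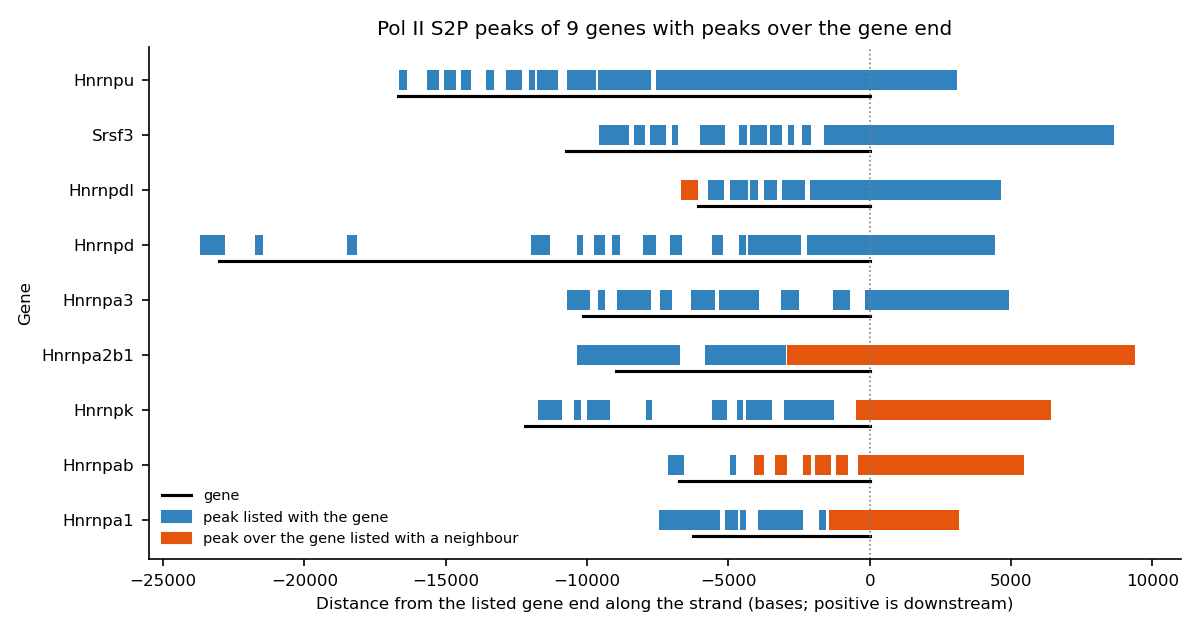
Pol II S2P peaks along 9 genes, all hnRNP genes except Srsf3, drawn to scale by their distance in bases from the listed gene end (dotted line). The gene is a black line, blue peaks are listed with the gene and orange peaks with a neighbour. Each gene has short separate peaks upstream and 1 long peak that runs over the end, by up to 9396 bases at Hnrnpa2b1.

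Short stretches at the listed ends of 4 genes with a gene-end peak are shown, since they place the peak against the site where the transcript is cleaved. The polyadenylation hexamer AATAAA was found in the last 40 bases of 8 of the 14 members whose gene-end peak was listed with them (57.1%) and of 56.9% of all 20807 genes. The bases are from the RefSeq copy of GRCm38.p6, read along the strand of the gene, with the hexamer in capitals.
Hnrnpdl (chr5:100033577-100033606, minus strand): caaaatgAATAAAgtctttttaaAATAAAa
Srsf7 (chr17:80200082-80200111, minus strand): gttcAATAAAtctgcagagattgaacaaat
Srsf10 (chr4:135869872-135869901, plus strand): gtaaAATAAActggtctaggagctttaaaa
Srsf5 (chr12:80950476-80950505, plus strand): tgatAATAAAatactaagtattataaaact
The Hnrnpdl stretch held the hexamer at 2 places, the nearer starting 7 bases from the gene end. In Srsf10 it started 33 bases from the end, and the peak continued 122 bases beyond the end. At Srsf7, an SR protein gene, the peak of 3341 bases continued 1753 beyond, and at Srsf5 the peak of 1276 bases continued 1124 beyond. Srsf3, Hnrnpu, Hnrnpd and Hnrnpa3 had no such hexamer in that window.

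The share of the members' Pol II S2P score that fell in peaks over the gene end was high in every library and higher in sKO. It was 40.7% and 41.3% in Ctrl against 44.6% and 43.9% in sKO, so the genotypes did not overlap and differed by 3.21 percentage points. The families were unlike: the mean Ctrl share was 60.2% for Srsf, 38.5% for hnRNP and 15.1% for Sf3 genes. The 3 gene-end peaks of Sf3 genes had a median length of 573 bases, and no peak listed with a Snrp gene held a gene end. For all protein-coding genes the share was 10.2% and 9.57% in Ctrl against 10.7% and 10.3% in sKO. Such a share is free of the scale of its library. Without the 5 genes with the highest gene-end score (Hnrnpu, Srsf3, Hnrnpa3, Hnrnpdl and Hnrnpd), the remaining 37 members had 14.5% and 14.2% in Ctrl against 15.6% and 15.3% in sKO, so both the level and the difference rested in large part on those 5. No test was made on a share over the members.

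Taken gene by gene, the gene-end share was above both Ctrl libraries in both sKO libraries at 10 of 14 members, beside 26.4% of 726 genes with a value. It was below at 0 of 14, beside 14.0%. The 726 genes were not matched to the members for score or peak length. The median gene-end peak was 2970 bases long in the members and 833 in all protein-coding genes. The median Ctrl score of the genes tested was 451 and 176.5. Whether this affected the counts was not tested. Srsf3 had 78.3% and 78.8% in Ctrl against 82.1% and 84.1% in sKO. Srsf10, which encodes an SR protein that represses splicing when dephosphorylated, had 35.2% and 35.7% against 45.9% and 44.4%. In Sf3b1 the share was 6.20% and 8.10% against 14.0% and 9.85%, and in Sf3b3 21.9% and 25.1% against 25.2% and 33.1%. The Sf3b1 share rests on a peak with low scores, 21 and 41 in Ctrl against 84 and 39 in sKO. The 4 members that overlapped were Sf3a1, Hnrnph1, Srsf6 and Srsf1. Since all shares come from the same 4 libraries, the genes are not independent of each other.

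**Figure D3:**
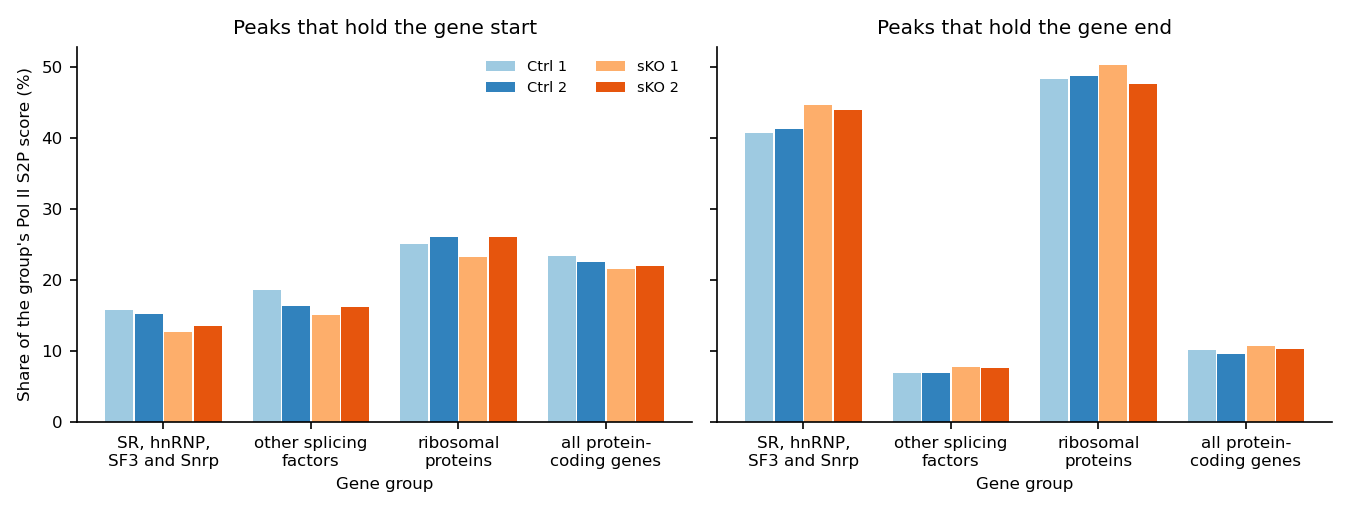
Share (%) of each gene group's summed Pol II S2P score that lay in peaks holding the gene start (left) or the gene end (right), 1 bar for each library, with no error bars because each bar is a single library. The splicing factor genes hold 40.7% to 44.6% of their score over gene ends and the cytosolic ribosomal protein genes 47.5% to 50.3%, against 9.57% to 10.7% for all protein-coding genes.

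At gene starts the shift ran the other way. Peaks centred within 1000 bases of the gene start held 18.6% and 18.0% of the members' score in Ctrl against 15.1% and 15.7% in sKO. All protein-coding genes had 25.7% and 25.0% in Ctrl against 23.5% and 24.1% in sKO. The difference was -2.92 percentage points for the members and -1.52 for all genes. Gene by gene, the share in the peak over the gene start was below both Ctrl libraries in both sKO libraries at 7 of 21 members, beside 29.0% of 2542 genes, and above at 1, beside 11.3%. By these counts the members were close to all genes. Start and end shares are parts of the same total, so a rise in the end share lowers what is left for starts. The 7 were Hnrnpd, Hnrnpa0, Srsf10, Srsf11, Hnrnpa3, Hnrnpc and Hnrnpr, and the 1 was Hnrnph3. In Hnrnpc the share was 15.1% and 12.8% in Ctrl against 8.54% and 12.3% in sKO. Hnrnpc also had the most peaks of any member, 28, and 12 members (28.6%) had 10 or more, beside 6.86% of all genes.

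The upstream sequences of 5 members are shown because the strongest Pol II S2P peak listed with each lay over the gene start and no annotated exon overlapped these bases. At Hnrnpa1 and Hnrnpa2b1 the gene-end peak listed with a neighbour had higher scores than the start peak. For Hnrnpa1 these were 1217 and 1375 against 746 and 779 in Ctrl. RefSeq windows from 250 bases before to 50 after the transcript start were found for 45 of the 51 members, and a listed Pol II S2P peak covered part of 29 of them. Hnrnpll, Hnrnpul2, Sf3b4, Sf3b5, Snrpb and Snrpd1 had no window. The 250 bases before the start are printed from GRCm38.p6, in the direction of transcription, with matches to 6 motifs on either strand in capitals. They were the GC box GGGCGG, the box CCAAT, the TATA box with the letters TATAAA, the ETS core CCGGAAG, the string ATGGCGG found in YY1 sites and the string TGCGCA found in NRF1 sites.
Hnrnpa1 (chr15:103240147-103240396, plus strand): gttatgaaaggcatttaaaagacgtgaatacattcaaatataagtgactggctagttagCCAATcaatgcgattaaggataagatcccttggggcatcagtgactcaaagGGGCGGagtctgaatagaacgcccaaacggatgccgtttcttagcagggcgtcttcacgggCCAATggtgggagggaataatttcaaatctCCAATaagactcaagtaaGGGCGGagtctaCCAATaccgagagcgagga
Hnrnpa2b1 (chr6:51469895-51470144, minus strand): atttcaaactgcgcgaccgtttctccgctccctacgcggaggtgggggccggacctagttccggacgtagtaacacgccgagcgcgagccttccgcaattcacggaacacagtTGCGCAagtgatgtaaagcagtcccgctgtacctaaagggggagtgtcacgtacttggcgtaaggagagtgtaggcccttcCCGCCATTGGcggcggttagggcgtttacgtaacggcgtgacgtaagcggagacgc
Hnrnpul1 (chr7:25754760-25755009, minus strand): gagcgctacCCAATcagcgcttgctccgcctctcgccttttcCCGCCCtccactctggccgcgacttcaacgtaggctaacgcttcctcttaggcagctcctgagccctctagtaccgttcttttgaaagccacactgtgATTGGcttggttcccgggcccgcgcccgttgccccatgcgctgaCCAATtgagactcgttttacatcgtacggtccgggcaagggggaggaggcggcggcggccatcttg
Hnrnpa0 (chr13:58128557-58128806, minus strand): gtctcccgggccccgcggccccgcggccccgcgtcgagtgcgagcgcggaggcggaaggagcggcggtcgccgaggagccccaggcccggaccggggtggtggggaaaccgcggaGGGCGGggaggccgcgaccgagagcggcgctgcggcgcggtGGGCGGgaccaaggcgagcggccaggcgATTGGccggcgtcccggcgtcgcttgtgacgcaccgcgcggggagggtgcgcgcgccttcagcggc
Srsf9 (chr5:115326927-115327176, plus strand): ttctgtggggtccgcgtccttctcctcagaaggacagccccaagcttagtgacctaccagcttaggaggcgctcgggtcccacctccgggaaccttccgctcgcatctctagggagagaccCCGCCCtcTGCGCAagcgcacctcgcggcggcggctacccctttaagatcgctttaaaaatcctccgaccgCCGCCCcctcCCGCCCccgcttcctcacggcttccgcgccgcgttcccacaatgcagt
Matches to ATGGCGG and CCAAT share bases in the Hnrnpa2b1 sequence. Over the whole window GGGCGG was found in 31 of 45 members (68.9%) and in 36.3% of 25748 promoters, CCAAT in 44.4% and 37.9%, and TATAAA in 13.3% and 14.2%. CCGGAAG was in 35.6% of member windows against 9.30% of all, ATGGCGG in 20.0% against 4.24%, and TGCGCA in 24.4% against 8.06%. The member windows were also richer in G and C, with a median of 60.3% against 53.0%, and held a median of 25 CpG dinucleotides against 7. For a member the window was the one nearest the listed gene start. For the 25748 promoters it was the most upstream one of each gene symbol, without restriction to protein-coding genes. These percentages and medians therefore do not compare windows chosen alike. A match is a description of the letters and says nothing of binding.

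The H4K20me1 signal was higher in sKO at most splicing factor genes, but by less than at most other genes. On the deposited scale 17 of the 32 members with a peak (53.1%) were called higher and 0 lower, beside 92.3% and 0% of all 13750 autosomal genes tested (limma, Benjamini-Hochberg adjusted). With no adjustment, 16 members and 90.3% of all genes had a p below 0.05. The median log2 fold change was 0.56 over the members and 1.11 over all genes, and 26 of the 32 members lay below the median gene. Each sKO library exceeded each Ctrl library at 25 members, beside a background of 96.5%, and lay below them at 1, beside 0.0364%. All 32 members passed the filter on the mean. The count of 17 rested on both sKO libraries, with 6 called higher without sKO 1 and 4 without sKO 2.

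**Figure D4:**
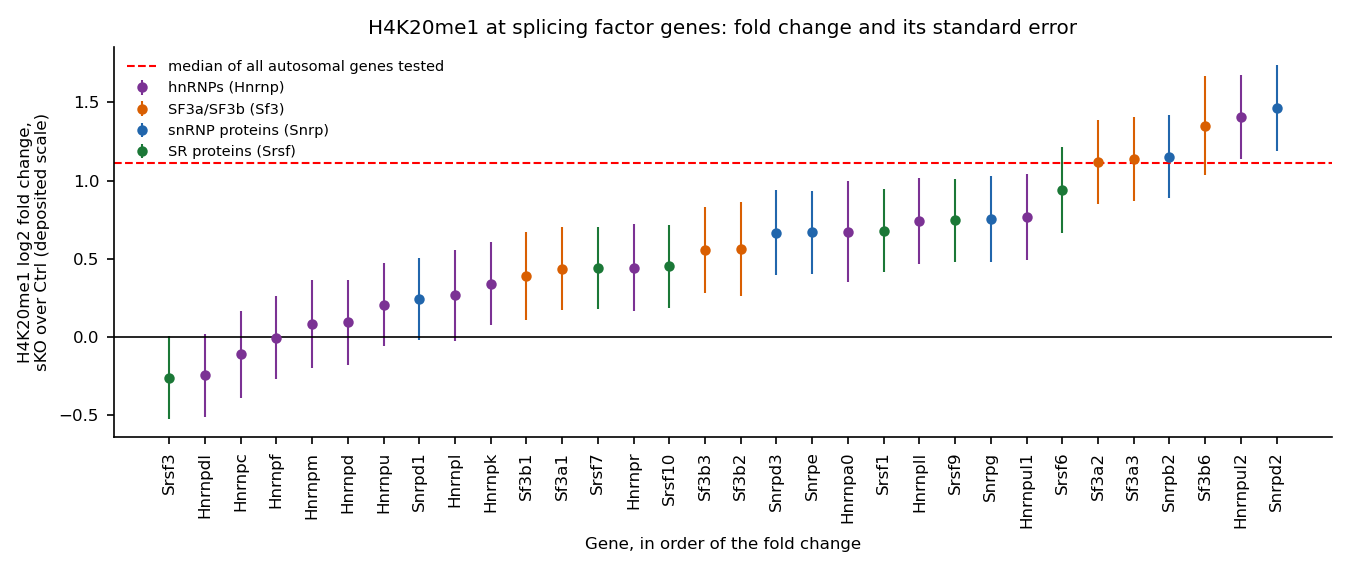
H4K20me1 log2 fold change of sKO over Ctrl on the deposited scale for the 32 splicing factor genes with a listed peak, as points with their standard error from limma (2 libraries per genotype), coloured by family. Of these genes, 26 lie below the dashed red line, the median of 1.11 over all autosomal genes tested, and 4 lie below 0.

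The Srsf3 domain was the 1 with both sKO libraries lower. Its scores were 736 and 901 in Ctrl against 655 and 703 in sKO (-0.26 ± 0.27, SE; limma adjusted p = 0.330). Hnrnpdl had 533 and 788 against 524 and 569 (-0.25 ± 0.27), and Hnrnpc 2365 and 2984 against 2292 and 2633 (-0.11 ± 0.28). None of the 3 passed the test, and at Hnrnpdl and Hnrnpc the genotypes overlapped. Hnrnpf, Hnrnpm, Hnrnpd and Hnrnpu followed, with log2 fold changes from -0.00 to 0.21. At the other end Snrpd2, an Sm ring gene, had 198 and 309 in Ctrl against 660 and 711 in sKO (1.47 ± 0.28, limma adjusted p = 6.05e-07). Hnrnpul2 had 318 and 331 against 777 and 954 (1.41 ± 0.27, adjusted p = 8.79e-07), and Sf3b6 had 120 and 165 against 356 and 365 (1.35 ± 0.32, adjusted p = 4.88e-05). At each of these 3 every sKO value was more than every Ctrl value. The fraction of the peak inside the gene was 0.3 at Snrpd2, 0.8 at Hnrnpul2 and 0.9 at Sf3b6. It was 0.6 at Srsf3, 0.4 at Hnrnpdl and 0.7 at Hnrnpc.

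Counts of genes called higher are given by family beside 92.3% of all genes, and the difference between families was not tested. Of the hnRNP genes 4 of 13 were called higher, with a median log2 fold change of 0.27. The counts were 5 of 7 for Sf3 genes (0.56), 5 of 6 for Snrp genes (0.71) and 3 of 6 for Srsf genes (0.57). Log2 fold changes above 0, called or not, were found at 10 hnRNP, 7 Sf3, 6 Snrp and 5 Srsf genes. The 4 hnRNP genes called higher were Hnrnpa0, Hnrnpll, Hnrnpul1 and Hnrnpul2. The Srsf genes called higher were Srsf1, Srsf6 and Srsf9, with Srsf6 at 1081 and 1568 in Ctrl against 2415 and 2591 in sKO (0.94 ± 0.27). The Srsf6 peak was 45200 bases long, and only a fraction of 0.1 of it lay inside the gene. That fraction was 0.4 at Srsf1 and Srsf9 and 0.2 at Hnrnpa0 and Snrpe, so these scores hold signal from outside the genes. Srsf7, with 630 and 674 against 917 and 853 (0.44 ± 0.27, limma adjusted p = 0.104), and Srsf10 (0.45 ± 0.27) stayed under the fold limit. In the SF3b complex Sf3b1 had 2006 and 2524 against 2801 and 3102 (0.39 ± 0.28, adjusted p = 0.170), while Sf3b3 rose from 1166 and 1598 to 1991 and 2020 (0.55 ± 0.27, adjusted p = 0.0474). Sf3a3 rose from 651 and 809 to 1501 and 1705 (1.14 ± 0.27). Of the other Sm genes, Snrpd3 rose from 1010 and 1176 to 1795 and 1667 (0.67 ± 0.27) and Snrpe from 512 and 749 to 908 and 1069 (0.67 ± 0.27), while Snrpd1 had 673 and 714 against 823 and 817 (0.24 ± 0.27) and was not called.

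Scaling the libraries to equal totals lowered the median log2 fold change of all genes from 1.11 to 0.18. On that scale 11 of 32 members (34.4%) were called lower in sKO and 1, Snrpd2, higher, beside 4.31% and 24.0% of all genes. The median over the members was -0.37. Of the 11, 8 were hnRNP genes, and the others were Srsf3, Sf3b1 and Snrpd1. The members' share of the H4K20me1 score of all genes fell from 0.213% and 0.203% in the Ctrl libraries to 0.150% and 0.146% in the sKO libraries. The adjusted p-values on this scale rest on a spread that limma takes largely from all genes, with 61.9 prior and 2 residual degrees of freedom, and on the deposited scale entirely so. They are smaller than 2 libraries per group would give for a gene on its own.

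Per kilobase of peak the members started high and ended at the level of other genes. Their median density was 30.2 and 37.6 in Ctrl against 50.7 and 52.4 in sKO, while all genes had 19.7 and 26.8 in Ctrl against 48.3 and 52.5 in sKO. Across deciles of Ctrl density, the median of all genes ran from 12.6 to 37.4 in Ctrl and only from 48.8 to 54.1 in sKO. Hnrnpc had 59.7 in Ctrl and 55.0 in sKO, Srsf3 44.0 and 36.5, and Snrpd2 19.8 and 53.6. Among all genes a higher Ctrl density went with a smaller fold change, with a Spearman correlation of -0.737 over 13750 genes and -0.875 over the 32 members. Density was taken from Ctrl 1 and the fold change from Ctrl 2, so that no library entered both sides, but the genes share their libraries and this is a description. Of the members, 25 were in the top quartile of Ctrl density, where their median log2 fold change was 0.44 and that of all 3438 genes was 0.69. The 7 members outside it had medians of 1.38 (4 genes) and 1.14 (3 genes), where all genes had 1.25 and 0.98.

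**Figure D5:**
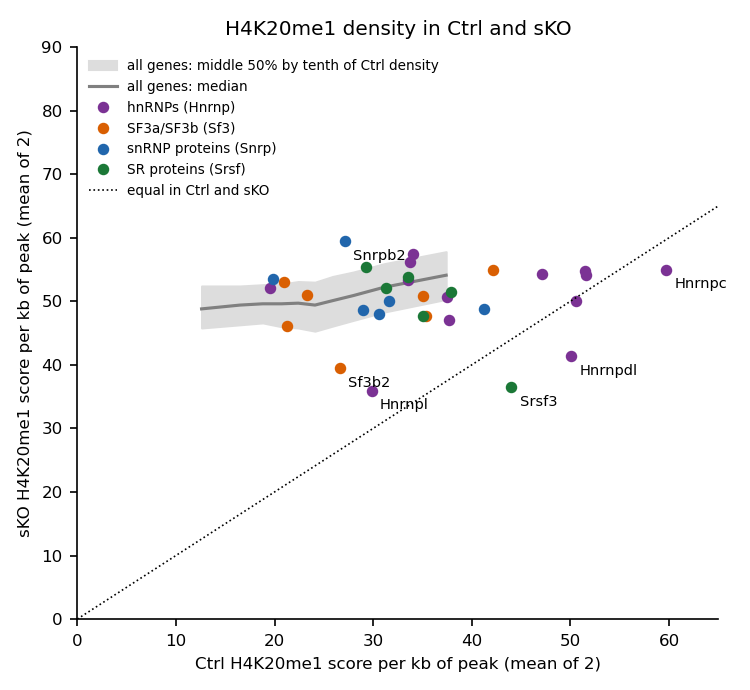
H4K20me1 score per kilobase of peak in Ctrl (x axis) and sKO (y axis), each the mean of 2 libraries, for the 32 splicing factor genes coloured by family, over the median (grey line) and middle 50% (grey band) of all autosomal genes by decile of Ctrl density. Densities in sKO lie close to 50 over the whole range of Ctrl densities, and Srsf3, Hnrnpdl and Hnrnpc lie below the dotted line of equal density.

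The 2 readouts were set side by side for the 29 members tested for both. The Spearman correlation of the H4K20me1 fold change with the Ctrl Pol II S2P score per kilobase of gene was -0.446, and over 5849 genes it was -0.0389. That of the H4K20me1 and Pol II S2P fold changes was -0.505, against -0.0477 over all genes. Srsf3, Hnrnpdl and Hnrnpc, the lowest for the H4K20me1 fold change, had Pol II S2P fold changes of 0.32, 0.20 and 0.41. Hnrnpul2, high for H4K20me1, had -0.33, a value that leaves out the peak over its start listed with Ttc9c. Sf3b6, also high for H4K20me1 (1.35), went the other way, with the highest Pol II S2P fold change of the members (0.44). These values describe 29 genes in the same cells and the points share library scale.

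Other splicing genes also lay mostly below the median gene for H4K20me1, 63 of 80 of them. Of these 80 further spliceosome and splicing regulator genes with a peak, out of a list of 121, 47 were called higher and 0 lower, beside 92.3% and 0% of all genes, with a median log2 fold change of 0.60. On equal totals 25 were called lower and 6 higher, beside 4.31% and 24.0%. Within that list, 5 of 17 SR-related protein and SR protein kinase genes were called higher on the deposited scale, and 19 of 21 genes of the Prp19 complex and step factors. The lowest was Rbm39, an SR-related splicing factor gene, with 1842 and 2436 in Ctrl against 1663 and 1895 in sKO (-0.25 ± 0.28), and the highest was Magoh, an exon junction complex subunit, with 79 and 77 against 270 and 322 (1.91 ± 0.36, limma adjusted p = 8.14e-07). For Pol II S2P 0 of 90 were called, and 2 at an unadjusted p under 0.05. The values ran from Taf15, with 150 and 145 in Ctrl against 108 and 102 in sKO, to Matr3, with 106 and 119 against 275 and 161. The gene-end share of that list was low, at 6.93% and 6.85% in Ctrl against 7.71% and 7.62% in sKO. The cytosolic ribosomal protein genes, short and heavily transcribed, were the nearer match in position, with 48.3% and 48.8% in Ctrl against 50.3% and 47.5% in sKO. Their H4K20me1 median was 0.63, with 10 of 16 called higher, and 0 of 62 were called for Pol II S2P.

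Several members had no Pol II S2P peak listed with them. These were Srsf2 and Srsf12, Sf3b5, and the Snrp genes Snrpa, Snrpa1, Snrpb2, Snrpd2, Snrpf and Snrpn, the last an imprinted gene known for its expression in neurons. Over 3 of these 9 genes lay peaks listed with a neighbour. At Snrpa, which encodes the A protein of U1, it covered the gene start and was listed with BC024978 (264 and 307 in Ctrl, 335 and 179 in sKO). At Snrpd2 it covered the gene start and was listed with Qpctl (395 and 516 against 522 and 376), and over Srsf2 lay a pair of peaks listed with Mettl23, the stronger with 131 and 110 against 87 and 71. Sf3a2, Snrpb and Snrpc, with scores between 7 and 54, were under the filter on the mean. At Sf3a2 a peak over the gene start was listed with Plekhj1 (324 and 440 in Ctrl, 474 and 332 in sKO). H4K20me1 peaks covered a median of 91.2% of the length of the 51 genes, and 18 lay entirely under such peaks. The 5 with no base under one were Srsf2, Srsf12, Sf3b4, Sf3b5 and Snrpn.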

How the data were processed

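The authors trimmed CUT&RUN reads with Trimmomatic 0.39, aligned them to mm10 (GRCm38) with STAR 2.7.3a, retained only unique alignments and used Picard 2.21.7 against duplicates. The submitters' processing notes also name MACS2 2.1.1 and SICER 0.0.41. The deposited values are a score per union peak and library, whole numbers that stand for coverage normalised by spike-in, with each peak listed with at most 1 gene, and the authors also deposited the fraction of each peak inside that gene. Unique alignment can lower the signal at genes with near-identical copies elsewhere in the genome. The depth in reads is not given by the scores, so no counting interval is printed. The 2 IgG libraries were not analysed here, and without the counts of spike-in reads the scale between libraries was not checked.

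Scores were summed by gene identifier. Genotypes were compared with limma 3.58.1 in R 4.3.3 (lmFit, eBayes with trend) on log2(score + 1), over autosomal genes with a mean above 50, with Benjamini-Hochberg adjustment over all of them. Fold changes on this scale understate changes of low genes. The limits for a call were 0.1 for the adjusted p and 0.5 or -0.5 for the log2 fold change. With 2 libraries per group an exact permutation test cannot reach 0.05, so shares and medians carry no p. The procedure was tested on simulated data. Across genes, the deviations of same-numbered libraries were hardly correlated (r = 0.0407 over 13750 genes for H4K20me1 and -0.0428 over 8531 for Pol II S2P). This correlation leaves out a shift common to all genes. For H4K20me1, replicate 1 had the lower total in both genotypes (15218720 against 20432644 in Ctrl, 32194136 against 35046570 in sKO). For Pol II S2P this held in Ctrl only. Libraries were not paired in the main fit, and a replicate block was an alternative. Peak positions, sequences and figures were handled with Python 3.11.15, pandas 2.3.3, pysam 0.24.0 and matplotlib 3.10.9. Promoter windows and gene ends are from RefSeq and GENCODE M21 on GRCm38.p6.

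Members and lists were chosen with earlier results of these data known. Genes with values are the 3 with the highest Ctrl Pol II S2P score in each family, the 3 highest and 3 lowest fold changes per antibody, those called for Pol II S2P, those with no Pol II S2P peak, the extremes of the list of other splicing genes, and Kmt5b. Further genes named for gene-end or gene-start peaks, for a share or for H4K20me1 were chosen after their values were seen. Alternatives were equal totals, quantile normalisation, a pseudocount of 8, no filter on the mean, peaks with at least 50% of their length in the gene, other windows, a replicate block and leaving out each library.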

Additional observations from a re-analysis of the deposited data

Results flagged for a closer look

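A pair of signals lay in data that the comparisons did not use. Hnrnph2, the member of the same families on X, had H4K20me1 scores of 539 and 798 in Ctrl against 985 and 1187 in sKO, with a log2 ratio of the means of 0.70 and each sKO value above each Ctrl value. The fraction of this peak inside Hnrnph2 was given as 0.0, so the score is not a measure of the mark on the gene itself. Another peak that overlapped the gene was listed with Gla, with 496 and 636 in Ctrl against 901 and 825 in sKO. Hnrnph2 was outside the fit because the fit covers autosomes.

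Of the members with no listed H4K20me1 peak, 14 lay under a peak that was listed with a neighbouring gene or with none. In 12 of these 14 peaks each sKO value exceeded each Ctrl value, the exceptions being those over Hnrnpab and Srsf5, while the same held for 96.5% of the 13750 autosomal genes tested. The log2 ratios of the means ran from -0.0809 to 1.39 with a median of 0.663. The peak over Hnrnpab, listed with Phykpl, had 663 and 914 in Ctrl against 754 and 737 in sKO. The peak over Srsf11, listed with Ankrd13c, had 4151 and 5398 in Ctrl against 7031 and 8086 in sKO, and that over Snrpa 483 and 483 against 1140 and 1386. Such peaks hold the neighbour as well, and the difference from the listed members was not tested.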

How the results depend on the processing

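The deposited scale set the H4K20me1 calls. On equal totals 1 member was called higher and 11 lower, with a median log2 fold change of -0.37, and after quantile normalisation 0 and 18, with a median of -0.54. With only peaks at least 50% inside the gene, 10 were called higher of 23 tested. Hnrnpa0, Hnrnpdl, Sf3a2, Snrpd2, Snrpe, Srsf1, Srsf6, Srsf7 and Srsf9 had no such peak. Leaving out each library in turn gave 4 to 22 called higher, 0 to 1 called lower and medians from 0.39 to 0.66. For Pol II S2P, 1 member was called lower on equal totals and 1 after quantile normalisation. The fits with a library left out are given for the deposited scale, where no gene was called with all libraries. They therefore have no bearing on those calls.

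Under equal totals and quantile normalisation the H4K20me1 log2 fold change turned negative for Hnrnpa0 (-0.25 and -0.67), Hnrnpu (-0.72 and -0.94), Sf3b1 (-0.54 and -0.55), Sf3b3 (-0.37 and -0.45), Snrpd1 (-0.69 and -0.92), Snrpd3 (-0.26 and -0.37), Snrpe (-0.26 and -0.49) and Srsf7 (-0.49 and -0.72), which follows from the scale. Leaving out Ctrl libraries turned Hnrnpc (-0.28 to 0.055), Hnrnpdl (-0.53 to 0.035) and Hnrnpu (-0.014 to 0.43). For Pol II S2P, where none of these was called, both scalings turned Hnrnpu (-0.076 and -0.025), Sf3a3 (-0.10 and -0.048) and Snrpd3 (-0.093 and -0.037), and peaks at least 50% in the gene turned Hnrnpdl (-0.027) and Srsf3 (-0.020). Leaving out libraries turned Hnrnpa3 (-0.022 to 0.59), Hnrnpdl (-0.16 to 0.57), Hnrnpu (-0.14 to 0.26), Sf3a3 (-0.27 to 0.34), Sf3b1 (-0.065 to 0.53), Snrpd3 (-0.25 to 0.35) and Srsf7 (-0.44 to 0.38). The cause was not tested.

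The Ctrl start share was 16.0% with a window of 500 bases, 23.0% with 2000 and 18.8% as a median over members, and the difference -3.75 points with 2000 and -2.09 as a median. The gene-end share, in alternatives chosen after seeing the data, was 32.6% (difference 3.67 points) for peaks centred within 1000 bases of the end or beyond and 14.4% (1.08 points) without the 5 leading genes. Leaving out libraries gave differences from -3.23 to -2.61 points at starts and from 2.86 to 3.56 at ends. A pseudocount of 8 and no filter on the mean changed no call of a named gene. The labels do not say that replicate numbers pair samples. With the replicate block 17 members were called higher for H4K20me1, 0 lower, and 0 for Pol II S2P.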
